A study of Mus musculus with 8 samples.

Results

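The kallikreins that shed the outer layer of the epidermis, with the inhibitors and the activating protease around them, were read in epidermal RNA-seq libraries with and without keratinocyte BMAL1. The 10 genes were taken by name through GENCODE release M21 on the mouse build GRCm38. They are Klk5, Klk6, Klk7, Klk8, Klk10, Klk11, Klk14, Spink5, St14 and Spint1, and all 10 are among the 34070 genes listed. Klk14 stayed below the filter on low counts, so 9 were tested.

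The libraries came from epidermal cell suspensions of adult mice of 18 to 25 weeks, killed at zeitgeber time ZT4, which is 4 h after lights on. The 4 Bmal1cKO libraries have the genotype K14-Cre;Bmal1flox/flox and the 4 Bmal1WT libraries K14-Cre;Bmal1wt/wt, so Cre under the keratin 14 promoter is shared by both. BMAL1 is an activator of the circadian clock. The keratin 14 promoter drives Cre in keratinocytes, and other cells of the suspension keep the gene. Whether every library is a separate animal is not in the labels, so p values measure the spread between libraries, which may be technical in part.

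Corneocytes are held together by corneodesmosomes, and their shedding depends on serine proteases that cut these junctions. KLK5 is a trypsin-like kallikrein that can activate itself and other kallikreins, and KLK7 is a chymotrypsin-like one that cuts corneodesmosomal proteins. LEKTI, the product of Spink5, inhibits the kallikreins in the upper layers, and its loss causes Netherton syndrome in humans. Matriptase, the product of St14, is a membrane protease upstream of the kallikreins, and HAI-1, the product of Spint1, inhibits it.

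The 7 kallikreins lie on the plus strand of chromosome 7 within 160.8 kb, in the order Klk14, Klk11, Klk10, Klk8, Klk7, Klk6 and Klk5. The following stretches are the 250 bases before the RefSeq start of Klk7, of Klk11 from the same tract and of Spint1 (GRCm38.p6, plus strand). They are shown because the groups did not overlap for Klk7 and Spint1 while Klk11 had about the same level in both. Capitals mark the E-box core CANNTG, the widest form of the sites that clock and other bHLH factors bind.
Klk7, chr7:43811044-43811293: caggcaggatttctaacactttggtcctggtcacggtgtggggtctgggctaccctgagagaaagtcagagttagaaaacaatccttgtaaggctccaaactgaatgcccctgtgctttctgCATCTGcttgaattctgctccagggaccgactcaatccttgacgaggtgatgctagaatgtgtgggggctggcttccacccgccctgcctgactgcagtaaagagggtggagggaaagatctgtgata
Klk11, chr7:43774367-43774616: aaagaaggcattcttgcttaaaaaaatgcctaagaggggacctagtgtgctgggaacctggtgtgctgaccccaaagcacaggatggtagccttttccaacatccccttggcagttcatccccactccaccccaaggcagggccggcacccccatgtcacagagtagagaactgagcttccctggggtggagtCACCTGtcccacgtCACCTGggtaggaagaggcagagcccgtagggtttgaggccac
Spint1, chr2:119237110-119237359: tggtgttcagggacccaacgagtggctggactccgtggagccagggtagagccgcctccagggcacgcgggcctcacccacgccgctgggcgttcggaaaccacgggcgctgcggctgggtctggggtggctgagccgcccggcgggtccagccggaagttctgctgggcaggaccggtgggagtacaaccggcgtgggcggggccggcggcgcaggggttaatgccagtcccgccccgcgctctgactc
On either strand, Klk7 held 1 core, Klk11 held 2 and Spint1 held 0. Of the other windows searched, Klk6 and Klk8 held 1 each, Klk14 held 2, and Klk5 and Klk10 held 0. Of 32841 RefSeq promoter windows of the same length, 66.2% held at least 1. The full clock E-box CACGTG, which is contained in the core, was found in 0 of the 8 windows available for these genes and in 6.02% of all windows. The AP-1 motif TGANTCA and the TATA motif TATAAA were also found in 0 of the 8, against 6.75% and 12.4% of all windows. No match says only that these letters are not in the 250 bases searched. The windows follow the RefSeq starts, which for some genes differ from the GENCODE ones. By GENCODE the Klk5 window lies inside the gene, and those of Klk6, Klk10 and Klk11 reach into theirs.

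The libraries held 35685261 to 50396156 counts each. The clock gene Nr1d1, a direct target of BMAL1, fell from 118 ± 17.1 to 2.58 ± 0.567 counts-per-million (CPM; SD, n = 4; edgeR adjusted p = 9.09e-07). Bmal1 itself, listed as Arntl, averaged 46.5 ± 3.29 and 33.7 ± 3.01 CPM (adjusted p 0.0611 by edgeR and 0.0358 with the replicate block). The keratinocyte genes Krt5 and Krt10 were at 8110 and 10900 CPM in Bmal1WT, and the 4 endothelial markers summed to 0.18 to 1.06 CPM per library. The labels give no sex. Xist and 4 Y-linked genes placed replicates 1 and 3 of both groups as female and replicates 2 and 4 as male.

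Of the 9 tested genes, 8 had lower estimates in Bmal1cKO and 1, St14, a higher one, where 53% of all genes had a lower one, but edgeR called 0 at an adjusted p under 0.05. Over all genes edgeR called 34 of 19646 (0.173%). DESeq2 (1.28% of all genes) and limma-voom (0.148%) also called 0 of the 9, and so did edgeR with the replicate number as a block, a fit that called 152 genes (0.774%). Of the 9, 4 had an unadjusted p under 0.05 (Klk6, Klk7, Klk8 and Spint1), against 8.3% of all genes tested, and all 4 had lower estimates (3.8% of all genes). For 2 of the 9, Klk7 and Spint1, all Bmal1cKO libraries were below all Bmal1WT libraries, against 2.51% of all genes, or 5.15% apart in either direction. Among female libraries alone 2 of the 9 were apart and among male libraries 7, against 36% and 44% of all genes. The median log2 fold change, Bmal1cKO over Bmal1WT, was -0.27 for the 9 and -0.01 for all genes. A p that misses the threshold does not show that the groups are alike.

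**Figure D1:**
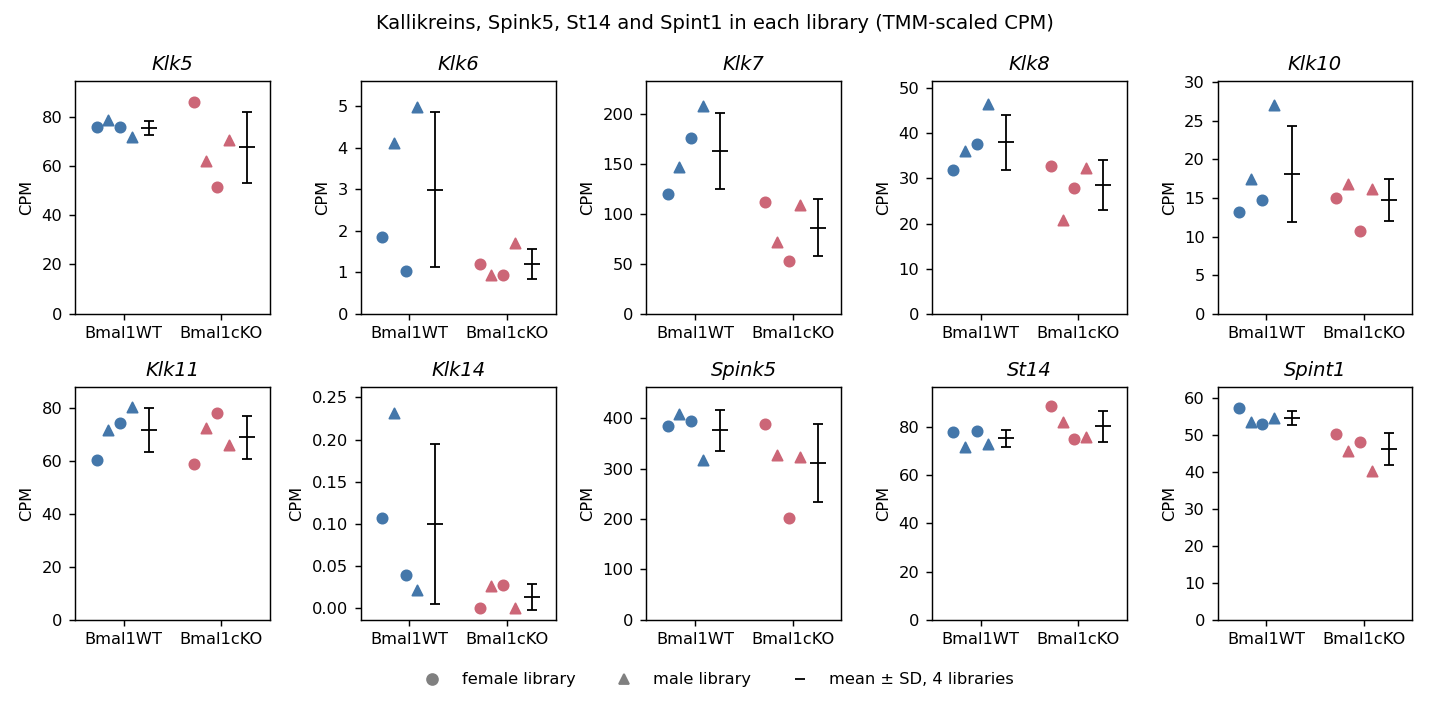
TMM-scaled CPM (y axis, 0 included) of each of the 10 genes in the 4 Bmal1WT (blue) and 4 Bmal1cKO (red) libraries, with circles for female and triangles for male libraries and the mean ± SD beside them. Klk7 and Spint1 are the 2 tested genes in which all Bmal1cKO points lie below all Bmal1WT points.

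Klk7 (ENSMUSG00000030713, chromosome 7, 43811294 to 43816359), the chymotrypsin-like kallikrein, reached 120, 147, 176 and 208 CPM in Bmal1WT, here and elsewhere in the order of replicates 1 to 4. In Bmal1cKO these were 112, 71.8, 52.6 and 109 CPM. The highest Bmal1cKO library lay just under the lowest Bmal1WT one, and both of these were female. The means were 163 ± 38 and 86.2 ± 28.9 CPM (SD, n = 4), giving a log2 difference of -0.92 ± 0.25 (SE, edgeR adjusted p = 0.295). This is an estimate 47.1% below Bmal1WT that missed the threshold. Within the sexes the log2 ratios of the means were -0.85 for female and -0.98 for male libraries. Without Bmal1WT replicate 4 and Bmal1cKO replicate 3, the highest and the lowest library, the fold change was -0.60 (edgeR adjusted p = 0.491).

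Klk5 (ENSMUSG00000074155, chromosome 7, 43841971 to 43851181), the trypsin-like kallikrein that activates others, had 75.8, 78.6, 75.6 and 71.7 CPM in Bmal1WT. In Bmal1cKO it had 85.7, 62.1, 51.6 and 70.4 CPM. The Bmal1WT values were close together, and those of Bmal1cKO spread to both sides of them, with replicate 1 above and replicates 2, 3 and 4 below all of Bmal1WT. The means were 75.4 ± 2.83 and 67.5 ± 14.4 CPM, giving a log2 difference of -0.16 ± 0.13 (edgeR adjusted p = 0.824). It was -0.30 without Bmal1cKO replicate 1 and -0.05 without Bmal1cKO replicate 3.

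Klk14 (ENSMUSG00000044737, chromosome 7, 43690418 to 43695536), a trypsin-like protease of human stratum corneum, was barely counted. Bmal1WT had 4, 9, 2 and 1 counts and Bmal1cKO had 0, 1, 1 and 0. These sum to 16 and 2 counts, too few for a test. The 2 libraries at 0 allow up to 0.0776 and 0.0798 CPM, taken as 3 counts, and this covers counting error only. Klk14 shares 287 bases of exon with 2310002F09Rik on the other strand, so even these counts are uncertain, since the strand setting is not given in the sources used here.

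Klk8 (ENSMUSG00000064023, chromosome 7, 43797577 to 43803826), a trypsin-like kallikrein also called neuropsin, had 31.9, 36, 37.7 and 46.5 CPM in Bmal1WT. The Bmal1cKO libraries had 32.8, 20.8, 27.9 and 32.4 CPM, so the groups overlapped between the lowest Bmal1WT and the 2 highest Bmal1cKO libraries. Its log2 difference was -0.42 ± 0.16 (edgeR adjusted p = 0.495), with log2 ratios of the means of -0.20 in female and -0.63 in male libraries. Klk8 overlaps 2310002F09Rik on the other strand over 382 bases of exon. Over the 8 libraries that gene had 1355 counts against 10905 of Klk8, and its own fold change was 0.32 ± 0.15 (edgeR adjusted p = 0.614).

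Klk6 (ENSMUSG00000050063, chromosome 7, 43824499 to 43832030), a trypsin-like kallikrein, was low, with 33 to 226 counts per library. It had 1.85, 4.1, 1.03 and 4.98 CPM in Bmal1WT and 1.19, 0.927, 0.926 and 1.7 CPM in Bmal1cKO. The 2 male Bmal1WT libraries were the highest of all 8. Of the 2 female ones, replicate 1 lay just above all of Bmal1cKO and replicate 3 within its range. The log2 fold change, -1.33 ± 0.46 (edgeR adjusted p = 0.454), was the most negative of the 9. The log2 ratio of means was -0.44 in female and -1.79 in male libraries. A genotype by sex term gave a log2 difference of -1.37, male minus female (edgeR adjusted p = 0.736). That term passed for 0 of the 9 genes, and for 1 of 19646 (0.00509%).

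Klk10 (ENSMUSG00000030693, chromosome 7, 43781035 to 43785410) had 13.2, 17.5, 14.7 and 27.1 CPM in Bmal1WT and 15, 16.8, 10.7 and 16.1 CPM in Bmal1cKO. Bmal1WT replicate 4 stood above the other 7, which overlapped. On the log2 scale the difference was -0.31 ± 0.23 (edgeR adjusted p = 0.798). Without that library it was -0.04 (edgeR adjusted p = 0.989), and without it and Bmal1cKO replicate 3 it was 0.08 (0.89).

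Klk11 (ENSMUSG00000067616, chromosome 7, 43774604 to 43779263), a trypsin-like kallikrein, had 60.2, 71.7, 74.2 and 80.1 CPM in Bmal1WT. Bmal1cKO had 58.8, 72.3, 77.8 and 65.8 CPM, which spans nearly the same range. The fold change was -0.06 in log2 ± 0.10 (edgeR adjusted p = 0.937), and its sign turned in 3 of 18 alternatives. In Bmal1cKO replicate 3 Klk11 was the highest of its group while Klk7 and Klk5 were the lowest.

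**Figure D2:**
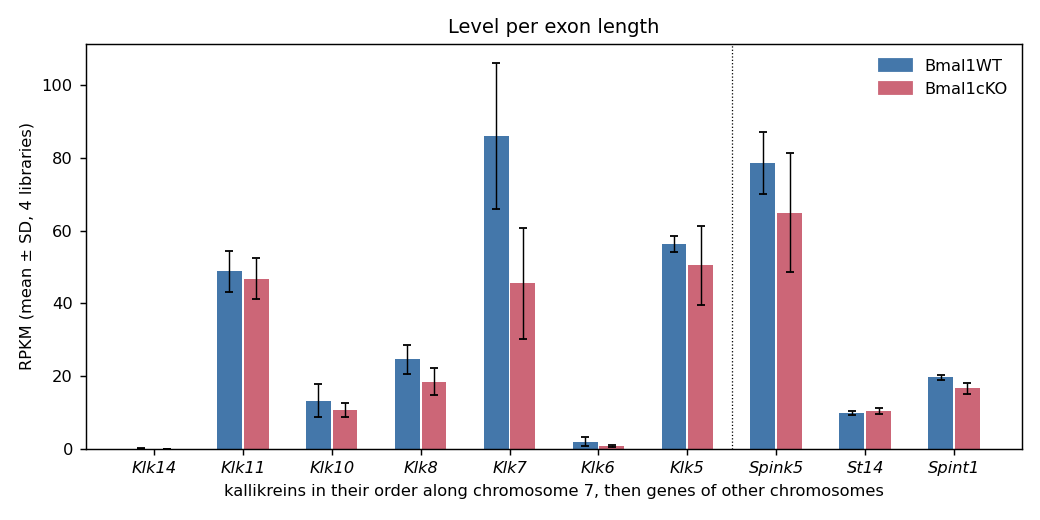
RPKM, reads scaled by exon length and library size (y axis, from 0), as mean ± SD over 4 libraries of Bmal1WT (blue) and Bmal1cKO (red), for the 7 kallikreins in chromosomal order and then Spink5, St14 and Spint1. Klk7 is the highest of the 10 in Bmal1WT at 86.1 RPKM and the fourth in Bmal1cKO at 45.5 RPKM.

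Levels of different genes were set side by side as RPKM, on the union of each gene's annotated exons. In Bmal1WT the mean levels ran from Klk7 at 86.1 ± 20 and Spink5 at 78.6 ± 8.52 RPKM through Klk5 at 56.4 ± 2.12 and Klk11 at 48.8 ± 5.69 RPKM. Klk8 followed at 24.7, Spint1 at 19.7, Klk10 at 13.2, St14 at 9.86, Klk6 at 1.98 and Klk14 at 0.0786 RPKM. The ranges of Klk7 and Spink5 overlapped, as did those of Klk5 and Klk11, and those of each neighbouring pair from Klk8 down to St14. In Bmal1cKO the order at the top was Spink5 at 65 ± 16.3, Klk5 at 50.5 ± 10.8, Klk11 at 46.8 ± 5.58 and Klk7 at 45.5 ± 15.2 RPKM, and each of these overlapped the one above it.

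Spink5 (ENSMUSG00000055561, chromosome 18, 43963235 to 44022501), the gene of the inhibitor LEKTI, had 384, 409, 395 and 317 CPM in Bmal1WT. Bmal1cKO had 389, 328, 203 and 323 CPM. The groups overlapped, and Bmal1cKO replicate 3 was well below the other 7 libraries. The log2 fold change was -0.27 ± 0.17 (edgeR adjusted p = 0.746), and -0.11 (0.825) without that library. In female libraries alone it was -0.39 and in male ones -0.15.

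St14 (ENSMUSG00000031995, chromosome 9, 31089402 to 31131853, minus strand), the gene of matriptase, had 78.1, 71.5, 78.5 and 73 CPM in Bmal1WT and 88.5, 82.1, 74.8 and 75.7 CPM in Bmal1cKO. The 2 highest values were Bmal1cKO libraries and the other 2 lay among Bmal1WT. The fold change was 0.09 in log2 ± 0.06 (edgeR adjusted p = 0.778), and 0.04 without Bmal1cKO replicate 1.

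Spint1 (ENSMUSG00000027315, chromosome 2, 119237362 to 119249527), the gene of the matriptase inhibitor HAI-1, had 57.3, 53.3, 52.9 and 54.6 CPM in Bmal1WT. Bmal1cKO had 50.3, 45.6, 48.1 and 40.2 CPM, all below the lowest Bmal1WT library. The means were 54.5 ± 2 and 46.1 ± 4.34 CPM, giving a log2 difference of -0.24 ± 0.07 (edgeR adjusted p = 0.367). The estimate is 15.5% below Bmal1WT and missed the threshold. It was -0.16 in female and -0.33 in male libraries as the log2 ratio of means.

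**Figure D3:**
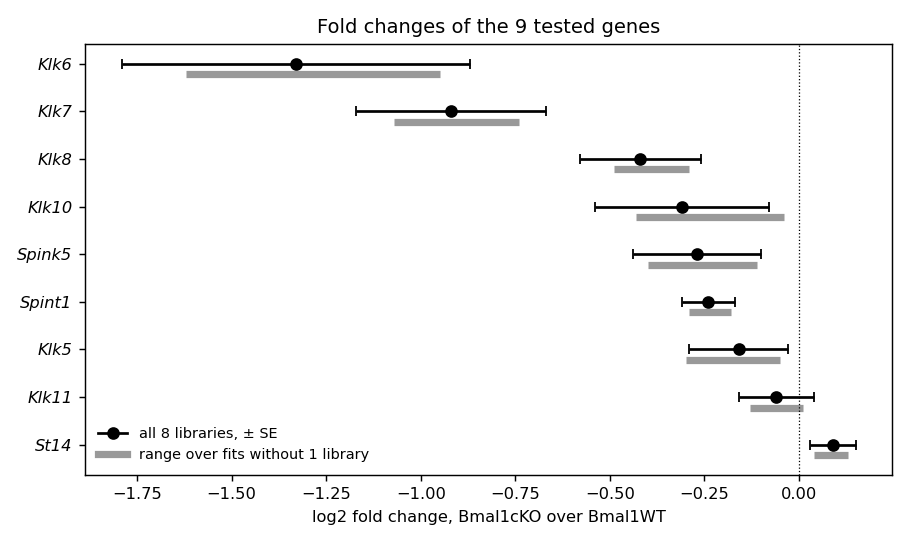
Log2 fold change, Bmal1cKO over Bmal1WT (x axis), of the 9 tested genes with its SE (black), and the range over the 8 fits that each leave out 1 library (grey). The range of Klk7 is -1.07 to -0.74, that of Spint1 -0.29 to -0.18, and that of Klk11 crosses 0.

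The libraries were not extreme in the same way for every gene. Among the 9 tested genes, Bmal1WT replicate 4 was the highest of its group for Klk6, Klk7, Klk8, Klk10 and Klk11 and the lowest for Klk5 and Spink5. Bmal1cKO replicate 3 was the lowest of its group for 6 genes (Klk5, Klk6, Klk7, Klk10, Spink5 and St14), and Bmal1cKO replicate 1 the highest for 6. Bmal1WT replicate 4 also had the highest sum of 8 hair follicle genes, 83.4 CPM against 28.9 to 34.4 CPM in the rest of Bmal1WT and 21.1 to 37.3 CPM in Bmal1cKO. Its 5 dermal fibroblast genes summed to 38.3 CPM against 2.96 to 9.26 CPM in the rest of Bmal1WT and 4.43 to 14.2 CPM in Bmal1cKO, with Lum and Pdgfra under 1 CPM in every library. The part of these cells in the kallikrein values was not tested.

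Ratios within a library set protease against protease and protease against inhibitor, as a description without a test. Of 11 ratios, shares and sums computed, 3 did not overlap between the groups. Klk7 over Klk5, in CPM, was 1.59, 1.87, 2.34 and 2.91 in Bmal1WT and 1.3, 1.16, 1.02 and 1.55 in Bmal1cKO. The share of Klk7 in the summed RPKM of the 7 kallikreins was 32.9 to 40.5% in Bmal1WT and 19 to 30.4% in Bmal1cKO. Both were lower in every Bmal1cKO library than in any Bmal1WT library. Both contain Klk7, whose own values did not overlap, so they are not separate support.

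St14 over Spint1, in RPKM, was 0.494, 0.486, 0.538 and 0.484 in Bmal1WT and 0.637, 0.653, 0.563 and 0.682 in Bmal1cKO. This ratio of matriptase to its inhibitor was higher in every Bmal1cKO library, with means of 0.5 ± 0.0251 and 0.634 ± 0.0506. It contains Spint1, whose own values did not overlap while those of St14 did, so it is not separate support. The ratios to Spink5 overlapped between the groups. Klk7 over Spink5 was 0.79 to 1.66 and 0.552 to 0.85, Klk5 over Spink5 0.685 to 0.81 and 0.677 to 0.909, and the 7 kallikreins together over Spink5 2.4 to 4.1 and 2.33 to 3.44.

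**Figure D4:**
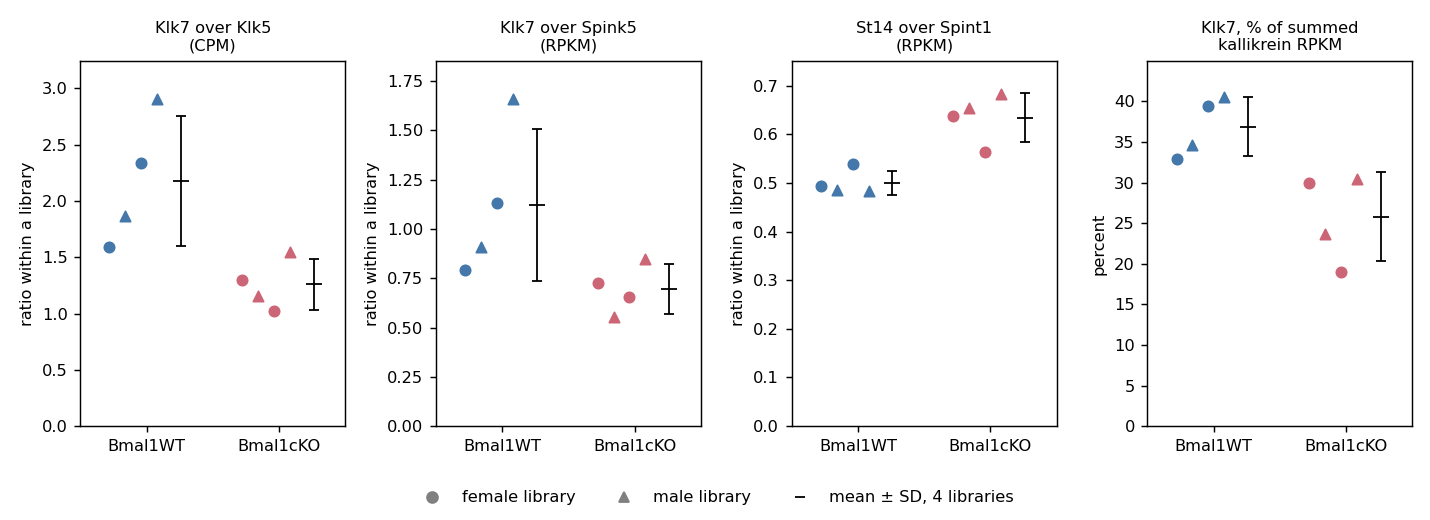
Ratios of Klk7 to Klk5 (CPM), Klk7 to Spink5 (RPKM) and St14 to Spint1 (RPKM), and the share of Klk7 in the summed kallikrein RPKM in percent, in each library (circles female, triangles male) with mean ± SD over 4 libraries. The groups overlap for Klk7 over Spink5 and are apart in the other 3 panels.

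The kallikreins and Spink5 are made in the granular layer, so the markers of that layer belong beside them. Over the 8 libraries the fold changes of the 11 granular genes tested were negative, at a median of -0.96 (log2). EdgeR called 0 of them, limma-voom 0 and DESeq2 2 (Flg and Cnfn, against 1.28% of all genes). Of the 11, 2 had an unadjusted p under 0.05, against 8.3% of all genes. With the replicate block edgeR called 1, Tgm3, lower, against 0.255% of all genes. Bmal1WT replicate 3 stood apart for some of the 11. Lor was at 496 CPM there against 80.9 to 137 CPM in the rest of Bmal1WT, and Lce1m at 198 against 16.5 to 50.7. For Flg, Hrnr and Tgm3 the highest of Bmal1WT was replicate 2, at 357, 1440 and 57.6 CPM. Without Bmal1WT replicate 3 the median was -0.18, with 10 negative values and 0 positive ones, and without replicate 2 it was -0.90. It was -1.16 in female and -0.13 in male libraries, and in the male ones 5 of the 11 were positive and 6 negative. Their summed level was 1500 to 3370 CPM in Bmal1WT and 915 to 1560 CPM in Bmal1cKO, with Bmal1WT replicate 3 the highest and Bmal1cKO replicate 3 the lowest of all 8. Per 1000 CPM of these granular genes, Klk7 stood at 52.3 to 139 CPM in Bmal1WT and 49.8 to 74.1 CPM in Bmal1cKO, which overlapped. Spink5 stood at 117 to 221 and 220 to 250 CPM on the same scale. In bulk epidermis fewer granular cells and less RNA per cell cannot be told apart. The 5 spinous genes had a median of -0.15 and the 6 basal genes one of 0.10, and edgeR called 0 of each.

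The other genes of the pathway were read from 6 lists with 51 members, of which 41 were tested. EdgeR called 0 of them and limma-voom 0. DESeq2 called 2, Plat and Serpina12, against 1.28% of all genes. Of the 41, 10 had an unadjusted p under 0.05, against 8.3% of all genes. With the replicate block edgeR called 1 higher, Plat, and 1 lower, Scnn1a, against 0.519% and 0.255% of all genes. With sex as a covariate edgeR called neither (adjusted p 0.133 and 0.0531). The median log2 fold change of the 41 was -0.14.

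Klk13, Klk12 and Klk9 lie among the 7 kallikreins, between Klk14 and Klk8. Klk9 averaged 3.1 ± 1.66 and 1.84 ± 0.291 CPM (-0.76 ± 0.34, edgeR adjusted p = 0.596). Klk13 averaged 1.3 ± 1.29 and 0.489 ± 0.225 CPM (-1.41 ± 0.68, edgeR adjusted p = 0.634). Both genes varied widely in Bmal1WT, Klk9 from 1.63 to 5.46 and Klk13 from 0.348 to 3.13 CPM. Without Bmal1WT replicate 3 Klk9 had -0.33, and without Bmal1WT replicate 4 Klk13 had -0.47. Klk1 and Klk12 were under 1 CPM in every library, and Klk4 and Klk15 are not among the 34070 genes listed.

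Among 8 tested membrane and activating proteases, 5 had positive and 3 negative fold changes, with a median of 0.03. Plat, the gene of tissue plasminogen activator, had 7.1, 6.44, 7.02 and 8.84 CPM in Bmal1WT and 11.4, 9.81, 9.06 and 12 CPM in Bmal1cKO. Its groups did not overlap, and the log2 fold change was 0.52 ± 0.13 (edgeR adjusted p = 0.23, 0.0485 with the replicate block, and 0.0184 with DESeq2). Prss8, which encodes prostasin, a membrane protease that acts with matriptase, averaged 16.7 ± 1.64 and 14.8 ± 1.69 CPM (-0.18 ± 0.10, edgeR adjusted p = 0.707), and it overlaps Kat8 on the other strand. Furin, a proprotein convertase gene, had 0.12 ± 0.06 (edgeR adjusted p = 0.627), and Tmprss11e, a membrane protease gene under 1 CPM on average, -1.24 ± 0.55 (0.595).

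Among 12 tested further protease inhibitors the median was -0.28. Serpina12, the gene of vaspin, a serpin that inhibits KLK7, had 28.3, 31.5, 50.5 and 24.2 CPM in Bmal1WT. Bmal1cKO had 23.1, 17.1, 11.1 and 18.9 CPM, all below the lowest Bmal1WT value. The log2 fold change of Serpina12 was -0.94 ± 0.26 (edgeR adjusted p = 0.319, 0.0177 with DESeq2), close to the -0.92 ± 0.25 of its target Klk7. The libraries behind these estimates differed. Bmal1WT replicate 4 was the lowest of its group for Serpina12, at 24.2 CPM, and the highest for Klk7, at 208 CPM. Without Bmal1WT replicate 3 Serpina12 had -0.67 and Klk7 -0.88. The serpin genes Serpinb8 and Serpinb2 had -0.25 ± 0.07 (edgeR adjusted p = 0.38) and 0.31 ± 0.10 (0.431), and Wfdc5, of the whey acidic protein family, -0.60 ± 0.25 (0.557). Serpinb2 shares exon with Serpinb10 on the same strand.

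The 8 corneodesmosome and desmosome genes, whose proteins the kallikreins cut or which anchor them, had fold changes of -0.37 to -0.04 with a median of -0.11. Without Bmal1WT replicate 2 the median was -0.04 and without Bmal1cKO replicate 3 it was -0.06, with 2 of the 8 positive in each. Cdsn, which encodes corneodesmosin, a substrate of KLK5 and KLK7, averaged 195 ± 29.4 and 159 ± 58.7 CPM (-0.29 ± 0.25, edgeR adjusted p = 0.84), and had -0.51 without Bmal1cKO replicate 1 and -0.08 without Bmal1cKO replicate 3. The desmosomal cadherin gene Dsc1 averaged 281 ± 61.8 and 217 ± 56.7 CPM (-0.37 ± 0.21, edgeR adjusted p = 0.709). Dsg1a and Dsg1b had -0.14 ± 0.12 (edgeR adjusted p = 0.838) and -0.12 ± 0.11 (0.856), and as close paralogs they may share reads. Of the 8, 0 had an unadjusted p under 0.05.

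Of 7 other proteases of the upper layers, with a median of -0.17, Asprv1, the gene of a filaggrin-cutting aspartic protease, averaged 124 ± 53.9 and 76.1 ± 13.5 CPM (-0.70 ± 0.27, edgeR adjusted p = 0.513), and had -0.37 without Bmal1WT replicate 3. Casp14, of the cornification caspase, averaged 87.4 ± 29.4 and 59 ± 10.5 CPM (-0.57 ± 0.23, edgeR adjusted p = 0.55). Blmh and Ctsl, which encode bleomycin hydrolase and cathepsin L, had -0.17 ± 0.11 and -0.28 ± 0.18 (edgeR adjusted p = 0.743 for each).

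Among 4 tested receptors and other targets, with a median of -0.17, Scnn1a, an epithelial sodium channel subunit gene, had 55.4, 49.1, 54.2 and 42.2 CPM in Bmal1WT and 45.7, 36.3, 39.7 and 34.9 CPM in Bmal1cKO. It was lower in each Bmal1cKO library than in the same-numbered Bmal1WT one, though the groups overlapped (-0.36 ± 0.11, edgeR adjusted p = 0.369, 0.0401 with the replicate block). F2rl1, which encodes PAR2, the receptor that KLK5 and KLK14 can activate, averaged 113 ± 9.36 and 126 ± 6.36 CPM (0.15 ± 0.07, edgeR adjusted p = 0.6). F2r had 0.02 ± 0.13 (edgeR adjusted p = 0.989) and the cytokine gene Tslp -0.39 ± 0.37 (0.864).

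**Figure D5:**
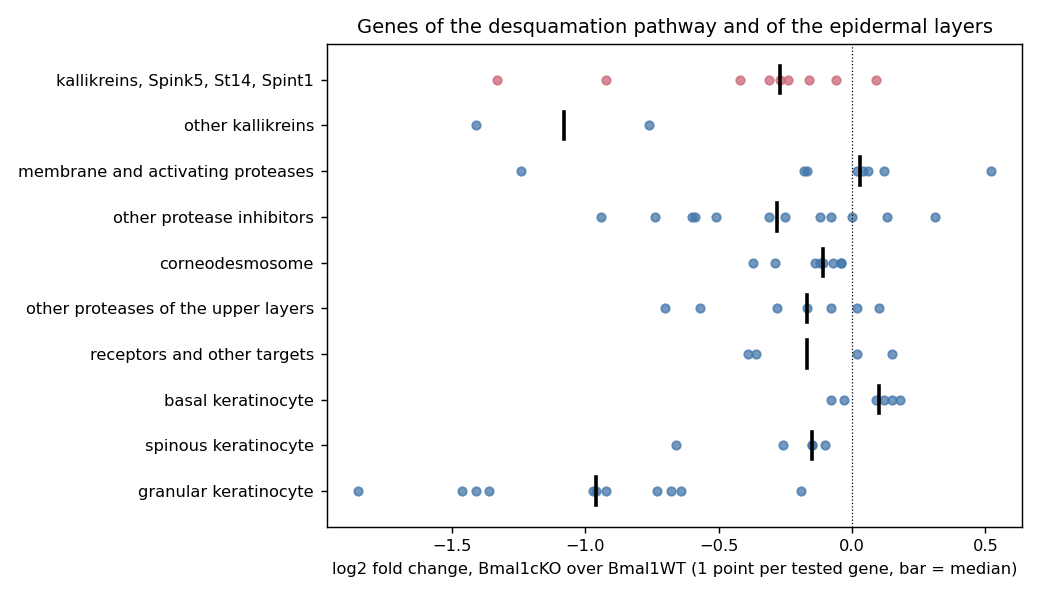
Log2 fold change, Bmal1cKO over Bmal1WT (x axis), of each tested gene (1 point each) of the 10 kallikrein, inhibitor and matriptase genes (red) and of 9 other lists (blue), with the median as a black bar. The granular median of -0.96 is -0.18 without Bmal1WT replicate 3, near the spinous -0.20 of the same fit, and -0.13 in male libraries, where the spinous one is -0.21. The granular gene Flg, at -1.85, is -1.74 in male libraries, where 5 of the 11 granular genes are positive. EdgeR called 0 genes of the lists shown.

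Markers of other cells had medians of -1.25 for 8 hair follicle genes, -1 for the 4 tested dermal fibroblast genes, -0.41 for 4 melanocyte genes and -0.29 for 5 epidermal T cell genes. The medians were 0.22 for sebaceous gland, 0.03 for Langerhans cell, -0.01 for outer root sheath and bulge, -0.33 for the 1 tested endothelial gene and -0.08 for muscle, adipocyte and red cell genes. Without Bmal1WT replicate 4 the hair follicle median was -0.12 and the fibroblast one 0.06. EdgeR called 0 of any of these lists. With the replicate block it called 1 T cell gene higher, against 0.519% of all genes, and with sex as a covariate 0 of that list. DESeq2 called 1 gene of the muscle, adipocyte and red cell list, against 1.28% of all genes.

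The genes most like 3 of the members across the 8 libraries were ranked by the root mean square difference of mean-centred log2 CPM, over 12806 genes of at least 5 CPM. For Klk7 the nearest were Dlx3 (0.194), a homeobox gene of keratinocyte differentiation, the membrane protease gene Tmprss11f (0.29), Anxa9 (0.325), Rsad1 (0.339) and Slc43a1 (0.347). Of these Rsad1 was called lower (-1.03 ± 0.14, edgeR adjusted p = 0.0257), where 0.173% of all genes were called, and Dlx3 had -0.62 ± 0.22 (0.463). Genes picked for a pattern like that of Klk7 share its lower values through the selection, so these estimates are not separate support. For Spink5 they were Dgat2 (0.0848), Ivl (0.0998), Agpat4 (0.101), Sbsn (0.109) and Cdr2 (0.113), where Ivl encodes involucrin and Sbsn suprabasin of the upper layers. For Klk5 they were Cdr2 (0.0697), Liph (0.0761), Gm7609 (0.0773), Gm29696 (0.0797) and Teddm3 (0.0813). Cdr2 was thus near both Klk5 and Spink5, and the 3 sets shared no other gene.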

How the data were processed

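Libraries of polyA RNA (TruSeq stranded, single reads of 51 bases, NextSeq2000) were made from 8 samples, per the labels' protocols. The authors deposited raw counts, 1 whole number for each gene and library. Trim Galore, STAR 2.7.10a and featureCounts with GRCm38 (mm10) are named in the submitters' processing notes. Neither annotation release nor strand setting is given in the sources used here. GENCODE M21 (primary assembly) named 33974 of 34070 genes.

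Tests used edgeR 4.0.16 under R 4.3.3 on these counts (filterByExpr with minimum count 10 and minimum total 15, 19646 genes; TMM; quasi-likelihood F-test, two-sided, genotype as the only term; Benjamini-Hochberg over all genes tested; a call is an adjusted p under 0.05). DESeq2 1.42.0, limma-voom 3.58.1, other filters, sex, the replicate block and left-out libraries were alternatives. CPM use TMM-scaled library sizes, RPKM add union exon length. SE is the log2 fold change over the square root of F. The model step was checked on simulated data. Library pairs within a group differed beyond sampling noise (chi-square per degree of freedom 13.15 to 49.28 over genes with at least 20 counts).

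Same-numbered libraries deviated together from their group means across genes (correlations 0.363, 0.518, 0.418 and 0.384). These were over the minimum of 0.1, so the numbers were taken to pair the samples in the replicate block. Same-sex libraries of other numbers also correlated (0.105 to 0.362). They too were over the minimum, so it cannot tell pairing by number from shared sex. The pairing comes from these data, not from the labels.

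The members and lists were chosen with earlier results of these data known. The genes named are all members, up to 4 genes of each pathway list with the smallest p, and the 5 genes nearest in pattern to each of Klk7, Klk5 and Spink5. Promoter sequences are RefSeq's on GRCm38.p6, with 8 of the 10 genes matched.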

Additional observations from a re-analysis of the deposited data

How the results depend on the processing

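Of the 9 tested genes, 0 were called under any of 17 alternatives or 1 more chosen after seeing the data, which left out Bmal1WT replicate 4 and Bmal1cKO replicate 3. The count over all genes was 34, and it was 71 without a filter, 252 with DESeq2, 152 with the replicate block, 119 with sex as a covariate, 13 in female and 101 in male libraries, and 21 without those 2 libraries. Without 1 library it ran from 23 to 32. The median of the 9 ran from -0.32 to -0.18 in these left-out fits. Of the 9, the genes whose groups do not overlap numbered 2 to 3 in them. The share of all genes without overlap was not computed for these fits, so this count has nothing to be set against. In the 4 male libraries alone they numbered 7, where 44% of all genes do not overlap. The replicate block changed no call of the 9. Without 1 library Klk11 ran from -0.13 to 0.01 and Klk10 from -0.43 to -0.04. Klk11 turned to 0.03 in female libraries, and to 0.01 without Bmal1WT replicate 4 and without Bmal1cKO replicate 1. Klk10 turned to 0.08 without Bmal1WT replicate 4 and Bmal1cKO replicate 3. The granular median of -0.96 was -0.18 without Bmal1WT replicate 3 and -0.13 in male libraries, in fits added after seeing the data. The cause was not tested. The smallest adjusted p of any of the 9 was 0.0784, for Klk6 in male libraries. The depth limits Klk14, with 18 counts in all.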

Other observations

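Of the glandular kallikreins further along the locus, Klk1b22 (ENSMUSG00000060177, chromosome 7, 44112673 to 44116922, 261.5 kb beyond Klk5) was present in some libraries and nearly absent in others, a gene chosen after its values were seen. From replicate 1 to replicate 4, Bmal1WT had 2, 187, 0 and 0 counts, while Bmal1cKO had 168, 340, 118 and 429. In CPM these were 0.0536, 4.8, 0, 0, 4.34, 8.76, 3.31 and 11.4. Bmal1WT replicate 2 was thus within the range of Bmal1cKO, and the other 3 Bmal1WT libraries had 2 counts in all. The fitted log2 difference was 2.56 ± 1.24 (edgeR adjusted p = 0.634). A further 8 Klk1b genes with at least 20 counts had 21 to 53 counts in all, of which at most 1 count per gene lay in those 3 libraries, but as close paralogs they may share reads with Klk1b22. For Klk7, Bmal1WT replicate 2, with 147 CPM, lay within the range of its own group. Whether the Klk1b22 pattern bears on the Klk7 values was not tested.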
